A study of Mus musculus with 10 samples.

Results

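Tight junctions seal the space between neighbouring epithelial cells near their apical side. Claudins form the strands of the seal, occludin and the junctional adhesion molecules sit beside them in the membrane, and zonula occludens proteins tie the strands to actin. The PAR complex, a set of scaffold proteins with an atypical protein kinase C, helps to place these junctions and sets the apical-basal axis of the cell. The lens epithelium is a single sheet of cells over the anterior lens, and loss of its junctions and polarity is a known feature of epithelial-mesenchymal transition, which TGF-β can induce.

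Of the 50763 genes in the deposited count table, 9 were taken by symbol, and all 9 were found. They were the claudins Cldn1, Cldn2, Cldn5 and Cldn12, the membrane proteins F11r and Ocln, the zonula occludens protein Tjp1 and the PAR proteins Pard3 and Pard6b. RNA-seq libraries came from lens epithelial explants of mice on the FVB/N background at 3 weeks of age, with 3 wild-type (WT), 3 OVE853 and 4 OVE918 libraries. OVE853 and OVE918 are independent homozygous transgenic families. In both, lens cells make human TGF-β1 in an active, secreted form from a transgene under the αA-crystallin promoter, which is specific to the lens, and both form anterior subcapsular plaques. The WT mice carry no transgene. Each WT or OVE853 library pooled up to 9 mice and each OVE918 library up to 7, so the p-values measure the spread between pools, and the whole explanted epithelium was used, not the isolated plaque.

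Total counts per library ranged from 24073311 to 31908525. Tgfb1, the transgenic gene, was at 50.6 to 61.7 CPM, a count scaled by library size, in WT, 339 to 361 in OVE853 and 715 to 881 in OVE918. It rose by 2.69 (OVE853) and 3.83 (OVE918) on the log2 scale, and in gene counts the human transgene and the mouse gene cannot be told apart. All 7 lens epithelium markers examined, Foxe3 and Pax6 among them, were detected in every library, and by edgeR Cdh1 alone among them changed, with a lower level in both lines (log2 fold change -0.76 and -0.61). In OVE853, 5 of the 7 had an unadjusted p under 0.05 by edgeR and 4 passed with DESeq2, a second method. In OVE918 these counts were 3 and 2. Markers of tissue around the lens differed in level between libraries. The summed CPM of 8 markers of non-pigmented ciliary epithelium was 659 to 1168 in WT, 270 to 322 in OVE853 and 78.5 to 151 in OVE918. Most of the WT sum was Optc, at 388 to 873 CPM, and Cldn10 of the same list rose in both lines. The summed CPM of 10 retinal neuron markers was 903 in WT replicate 3 against 88.6 and 111 in the other WT libraries, so values without this library are given beside the results that rest on WT. In pooled tissue, fewer cells of a type and less RNA per cell cannot be told apart.

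Levels are given as CPM scaled by TMM, which takes account of differences in library composition. A gene was tested when it reached at least 2 FPKM (read pairs scaled by library size and gene length) in at least 5 of the 10 libraries, which left 11097 genes. A tested gene was taken as changed at a false discovery rate (FDR) of at most 0.05, and as a DEG when its log2 fold change was also at least 1 in size. Among the 9 genes, 7 were tested. Ocln and Pard6b were under the minimum, and their fold changes come from a fit of the 18058 genes kept by filterByExpr, a filter on counts alone. Cldn5 entered the test through the transgenic lines only, since 0 WT, 2 OVE853 and 3 OVE918 libraries reached 2 FPKM. Cldn1 entered it through WT and OVE853 only, with 3 WT, 3 OVE853 and 0 OVE918 libraries at that level.

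Cldn5 could pass the minimum only by being high in the transgenic lines, and Cldn1 passed only through WT and OVE853. Both are left out of the counts of changed genes against WT and described by their own values. Of the other tested genes, Cldn2, F11r and Pard3 fell in OVE918, and Cldn2 was a DEG. In OVE853, Cldn12 rose and F11r fell, and 0 were DEGs by edgeR or by DESeq2. No other of these genes had an unadjusted p under 0.05 in OVE853, whereas Cldn1 and Cldn5 did. Over all tested genes, 8.10% were higher and 7.69% lower in OVE853 than in WT, with 2.51% and 1.91% as DEGs. In OVE918, 8.00% were higher and 11% lower, with 2.58% and 3.02% as DEGs. The 7 tested genes, Cldn1 and Cldn5 included, had a median log2 fold change of -0.12 (OVE853) and -0.34 (OVE918). Over all tested genes the medians were -0.01 and 0.01. With Cldn5 left out and Cldn1 kept, the values were -0.19 and -0.62, which are not free of the filter. Directly between the lines, Cldn1 alone of the 7 changed by edgeR, with a lower level in OVE918, where every library was under the minimum. DESeq2 also called Cldn2, Cldn12 and F11r lower. By edgeR, 0.378% of all tested genes were higher and 0.937% lower than in OVE853 and 0.0721% and 0.415% were DEGs. The comparisons with WT share the same WT libraries and are therefore not independent of each other.

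**Figure D1:**
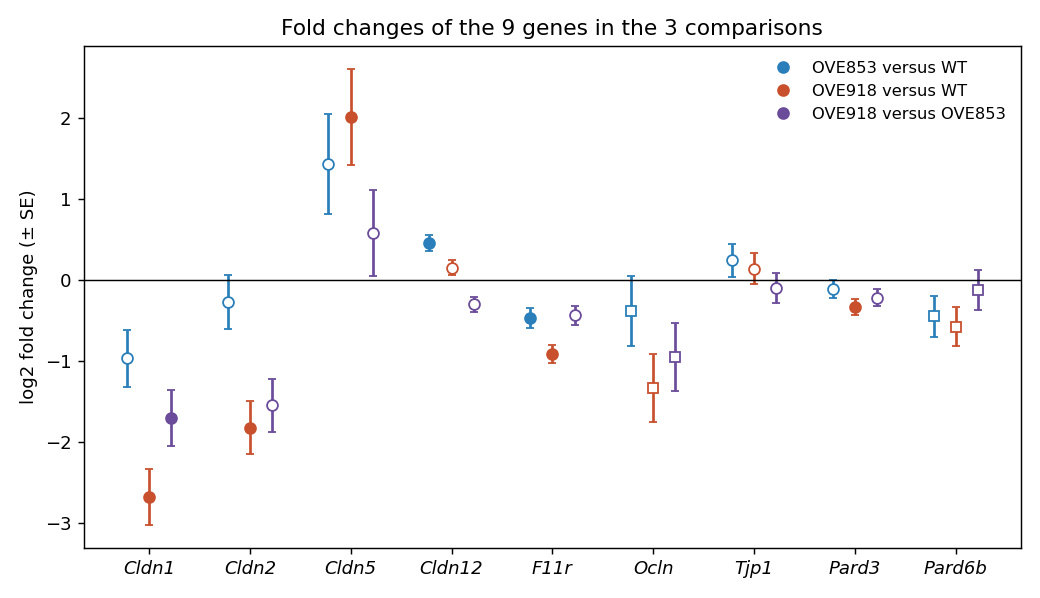
Log2 fold change (points) with its standard error (bars) of each gene in OVE853 against WT, OVE918 against WT and OVE918 against OVE853. Filled points passed an FDR of 0.05, squares are the genes fitted among those kept by filterByExpr, and the largest fall is that of Cldn1 in OVE918 at -2.67.

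On a scale per length, Tjp1 had the highest WT level at 22.9 ± 3.30 FPKM (SD, n = 3). F11r followed at 13.7 ± 2.02, Cldn12 at 13.0 ± 0.85, Cldn2 at 10.5 ± 3.52 and Pard3 at 7.44 ± 0.33 FPKM, and the library ranges of each neighbouring pair in this run from F11r to Pard3 overlapped. Cldn1 was at 3.98 ± 1.74, Pard6b at 1.90 ± 0.48, Cldn5 at 0.896 ± 0.396 and Ocln at 0.343 ± 0.097 FPKM, and the ranges of these 4 genes did not overlap with those of their neighbours in the order. The order was different in OVE918. Cldn5 had 3.37 ± 1.71 FPKM and stood above Cldn2 at 2.76 ± 1.10, with overlapping ranges, and Cldn1 at 0.590 ± 0.265 stood below Pard6b at 1.18 ± 0.34, again with overlapping ranges. Tjp1 at 24.2 ± 7.35 and Cldn12 at 13.6 ± 2.06 FPKM were the highest. Exon lengths over all annotated transcripts lowered the WT level of Cldn12 to 6.38 and that of Pard3 to 4.30 FPKM, so that Cldn12 then stood below Cldn2 at 9.55.

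**Figure D2:**
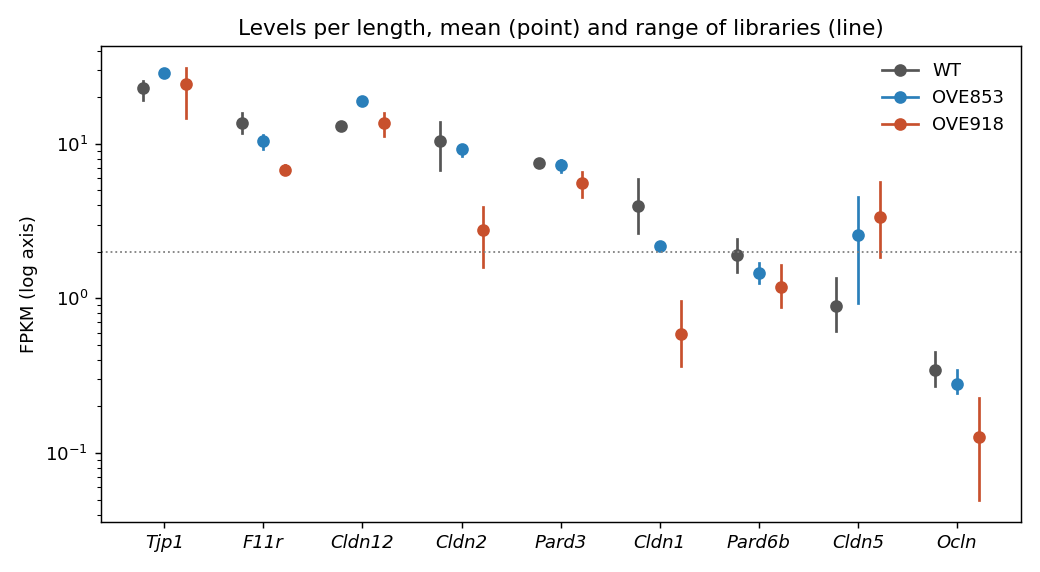
FPKM of the 9 genes on a log axis, ordered by the WT mean, with the group mean as a point and the range over libraries as a line (WT n = 3, OVE853 n = 3, OVE918 n = 4). The dotted line marks the minimum of 2 FPKM, under which Cldn1 fell in OVE918 and above which the mean of Cldn5 stood in both lines.

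The bases before the start sites of the 3 genes that changed most in OVE918 and of F11r, which fell in both lines, are shown because these genes moved in different directions. Sequences are from the RefSeq promoter table (GRCm38.p6), which holds windows of 250 bases before and 50 bases after a start, and were placed on GRCm39 by an exact match. Bases at or after the start of the GENCODE gene were left out. Capitals mark the E-box CAGGTG, a motif that repressors of the SNAI and ZEB families can bind, and the GC box GGGCGG, each on either strand, and TATAAA was searched in the same way. No marked matches overlapped.
Cldn1, chr16:26190597-26190839, minus strand, 243 bases.
Cldn1: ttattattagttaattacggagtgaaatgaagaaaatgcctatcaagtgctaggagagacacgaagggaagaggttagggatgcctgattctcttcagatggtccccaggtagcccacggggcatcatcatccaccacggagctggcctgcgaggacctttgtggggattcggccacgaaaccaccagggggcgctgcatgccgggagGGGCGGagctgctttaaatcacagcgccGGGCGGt
Cldn2, chrX:138701307-138701479, plus strand, 173 bases.
Cldn2: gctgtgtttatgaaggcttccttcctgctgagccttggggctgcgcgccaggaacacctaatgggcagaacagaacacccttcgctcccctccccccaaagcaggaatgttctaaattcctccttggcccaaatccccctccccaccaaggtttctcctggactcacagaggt
F11r, chr1:171264879-171265091, plus strand, 213 bases.
F11r: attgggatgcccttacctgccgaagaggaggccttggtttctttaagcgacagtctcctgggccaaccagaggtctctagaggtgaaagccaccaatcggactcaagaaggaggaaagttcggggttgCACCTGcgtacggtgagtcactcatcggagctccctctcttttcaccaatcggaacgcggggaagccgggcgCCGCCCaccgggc
Cldn5, chr16:18595347-18595596, plus strand, 250 bases.
Cldn5: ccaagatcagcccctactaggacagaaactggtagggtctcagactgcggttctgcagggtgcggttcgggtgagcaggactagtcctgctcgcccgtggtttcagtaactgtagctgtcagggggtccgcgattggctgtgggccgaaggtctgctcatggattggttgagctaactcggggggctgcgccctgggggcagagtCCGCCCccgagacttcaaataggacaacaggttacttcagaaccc

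In the whole 300-base windows, the E-box was found in F11r, 122 bases before the start, and in no window of Cldn1, Cldn2 or Cldn5. GC boxes lay 42 and 14 bases before the start of Cldn1, 50 before that of F11r and 45 before that of Cldn5. The only TATAAA among these 4 genes lay 35 bases before the RefSeq start of Cldn2, in the stretch that was left out. Over the 13 windows of all 9 genes, 5 held an E-box, 10 a GC box and 2 a TATAAA, beside 20.2%, 35.7% and 13.6% of the 32851 windows in the table. Cldn12, Ocln and Pard3 have more than 1 window each. The windows of the 9 genes held 45.3% to 78.7% G and C, beside a median of 52.7% over the table. All were above that median except those of Cldn2, 1 of Cldn12 and 1 of Pard3. The shares were not matched for this composition. These matches describe letters and not binding.

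Cldn1 forms barrier strands in many epithelia and lies on chromosome 16 at 26175392 to 26190596 of the minus strand (GRCm39). Its level was 20.8, 8.69 and 10.97 CPM in the WT libraries, 6.89, 7.23 and 6.50 in OVE853 and 2.27, 1.42, 3.31 and 1.38 in OVE918. The groups formed 3 steps with no overlap, and the OVE918 values rest on 30 to 89 read pairs per library. The mean fell from 13.5 ± 6.43 CPM (SD, n = 3) in WT to 2.09 ± 0.91 (n = 4) in OVE918, a log2 fold change of -2.67 ± 0.35 (SE, edgeR FDR 0.000395) or 6.38-fold lower. In OVE853 the log2 fold change was -0.97 ± 0.35 with an FDR of 0.0835, so the level there was not distinguished from WT by this test, although DESeq2 gave an FDR of 0.0324. The fall of OVE918 against OVE853 had a log2 fold change of -1.70 ± 0.35 and an FDR of 0.0480. That last call was lost, at an FDR of 0.0513 to 0.181, without WT replicate 2, any 1 of the 3 OVE853 libraries, OVE918 replicate 1 or OVE918 replicate 4, whereas the fall of OVE918 against WT held without each library (log2 fold change -2.99 to -2.22) and was -2.80 without WT replicate 3.

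Cldn2 forms strands with pores for small cations and lies on the X chromosome at 138701480 to 138712135 of the plus strand. It was at 36.4, 21.6 and 43.5 CPM in WT and at 28.5, 31.1 and 24.6 in OVE853. The OVE918 libraries had 12.8, 5.03, 12.9 and 7.52 CPM, all below every other library. The means of WT and OVE853, 33.9 ± 11.2 and 28.0 ± 3.26 CPM, overlapped in their libraries (log2 fold change -0.27 ± 0.34, FDR 0.592). In OVE918 the mean of 9.57 ± 3.94 CPM was 3.54-fold lower than in WT, a log2 fold change of -1.82 ± 0.32 (FDR 0.00313), and it was -1.60 (FDR 0.00948) without WT replicate 3. With WT replicate 3 and OVE918 replicate 4 both left out, it was -1.50 and no longer passed (FDR 0.0615). Against OVE853 the log2 fold change was -1.55 ± 0.32 with an FDR of 0.0501, just outside the threshold, and it passed without WT replicate 3 (FDR 0.0272), without OVE918 replicate 2 (FDR 0.0387) and with DESeq2 (FDR 0.000147).

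Markers of non-pigmented ciliary epithelium, the tissue that faces the lens equator, were lower in OVE918 together with both claudins. Of the 8 markers, all of them tested, 5 fell and 1 rose in OVE853, and 7 fell and 1 rose in OVE918, with 3 falling further from OVE853 to OVE918. Optc, an extracellular matrix protein, was at 388 to 873 CPM in WT, 168 to 246 in OVE853 and 40.3 to 98.7 in OVE918, and its log2 fold change in OVE918 was -3.05 (FDR 0.000209). Best2, a chloride channel, fell by 4.16 and Zic1, a zinc finger transcription factor, by 1.98 on the log2 scale in OVE918. None of the 8 markers was at 0 in any group, and the part of this tissue in the levels of Cldn1 and Cldn2 was not tested. The marker that rose was Cldn10, a claudin that is also counted below among the other junction genes.

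Cldn5 is the main claudin of endothelium and lies on chromosome 16 at 18595597 to 18597012 of the plus strand. WT libraries had 2.06, 1.04 and 0.877 CPM, from 25 to 46 read pairs. OVE853 libraries had 6.19, 1.33 and 2.96 CPM, and OVE918 libraries 3.04, 3.28, 5.50 and 9.37. Every OVE918 library was above every WT library, whereas OVE853 replicate 2 lay within the WT range. The mean rose from 1.32 ± 0.64 CPM in WT to 5.30 ± 2.93 in OVE918, a log2 fold change of 2.01 ± 0.59 (FDR 0.0385) or 4.03-fold. In OVE853, with a mean of 3.50 ± 2.47 CPM, it was 1.43 ± 0.61 (FDR 0.132). The OVE918 call was lost without WT replicate 2 (1.87, FDR 0.114) and without WT replicate 3 (1.78, FDR 0.120), and without OVE853 replicate 1, OVE853 replicate 3, OVE918 replicate 2, OVE918 replicate 3 or OVE918 replicate 4 the gene no longer reached the FPKM minimum. With every gene of at least 1 count in the fit, which does not depend on that minimum, the value was 2.02 and did not pass (FDR 0.0911), while among the genes kept by filterByExpr it was 2.03 and passed (FDR 0.0438).

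Most endothelial markers were low. Pecam1, an adhesion molecule of endothelium, had 1.61, 0.423 and 0.386 CPM in WT, 3.32, 1.37 and 1.84 in OVE853 and 1.80, 2.27, 3.83 and 4.98 in OVE918. Its highest OVE918 library was replicate 4 and its lowest OVE853 library replicate 2, the same libraries as for Cldn5. OVE918 replicate 4, the highest of its group for Cldn5, was the lowest for Cdh5. Cdh5, the endothelial cadherin, was at 0.280 to 1.70 CPM in WT, 4.22 to 7.25 in OVE853 and 3.41 to 4.35 in OVE918. Of the 11 markers of this list, 8 had a higher mean than WT in OVE853 and 9 in OVE918, 2 were abundant enough for the test and 0 of these changed by edgeR, with Kdr, lower in both lines, at an unadjusted p under 0.05 and an FDR of 0.0923 and 0.0605, while DESeq2 called 1 in each line. The summed CPM did not separate the groups, at 61.4 to 149 in WT, 45.8 to 63.8 in OVE853 and 54.9 to 69.0 in OVE918, and the highest WT sum was that of replicate 3, where Kdr alone had 113 CPM. No marker of the list was at 0 throughout a group. The part of endothelial cells in the level of Cldn5 was not tested.

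**Figure D3:**
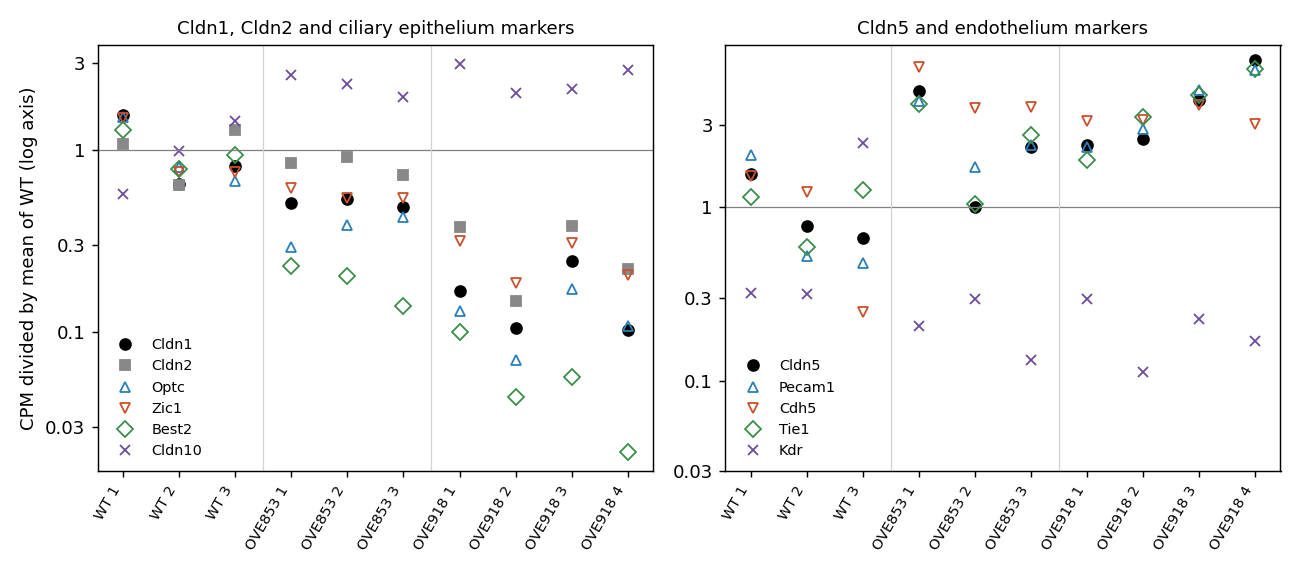
CPM in each of the 10 libraries divided by the mean of the 3 WT libraries, on a log axis, for Cldn1 and Cldn2 with ciliary epithelium markers (left) and for Cldn5 with endothelium markers (right). Filled symbols are the claudins described, and Optc, Zic1 and Best2 are lower in OVE918 together with Cldn1 and Cldn2 while Cldn10 is higher.

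Cldn12 is a broadly expressed claudin that lacks the PDZ-binding end by which most claudins hold zonula occludens proteins. The gene lies on chromosome 5 at 5539537 to 5564995 of the minus strand. It was at 68.9, 71.0 and 62.0 CPM in WT, at 87.2, 99.3 and 89.7 in OVE853 and at 74.3, 79.8, 78.0 and 66.0 in OVE918. All OVE853 libraries were above all others, and OVE918 overlapped with WT. The mean of 92.0 ± 6.40 CPM in OVE853 was 1.37-fold that of WT (67.3 ± 4.72), a log2 fold change of 0.45 ± 0.10 (FDR 0.0130), and 0.39 (FDR 0.0363) without WT replicate 3. The rise no longer passed without OVE853 replicate 2 (0.40, FDR 0.0573). In OVE918, at 74.5 ± 6.12 CPM, the log2 fold change was 0.15 ± 0.09 (FDR 0.297), and between the lines it was -0.30 ± 0.09 (FDR 0.107, and 0.0494 with DESeq2).

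F11r encodes junctional adhesion molecule A, an immunoglobulin-like protein that binds its like on the neighbouring cell and recruits PAR proteins. It lies on chromosome 1 at 171265092 to 171292958 of the plus strand. The WT libraries had 41.5, 46.0 and 52.2 CPM, the OVE853 libraries 34.3, 30.9 and 35.5, and the OVE918 libraries 24.8, 21.2, 25.6 and 27.6. As with Cldn1, the 3 groups did not overlap at any point. How many of all tested genes separate in this way was not counted. The mean fell from 46.6 ± 5.37 CPM in WT to 33.6 ± 2.35 in OVE853 (log2 fold change -0.47 ± 0.12, FDR 0.0248) and to 24.8 ± 2.69 in OVE918 (-0.91 ± 0.11, FDR 0.000270). In OVE918 it remained between -0.99 and -0.82 and passed without each of the libraries. In OVE853 the call was lost, at an FDR of 0.0523 to 0.0950, without WT replicate 2, WT replicate 3 or any 1 of the 3 OVE853 libraries. Between the lines the log2 fold change was -0.44 ± 0.11 (FDR 0.0778), and it passed without WT replicate 3 (FDR 0.0423), with DESeq2 (FDR 0.0149), with library totals only (FDR 0.0268) and with WT replicate 3 and OVE918 replicate 4 both left out (FDR 0.0212).

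Ocln encodes occludin, which shapes the strands where cells meet, and lies on chromosome 13 at 100630334 to 100689535 of the minus strand. It was scarce in all groups. WT libraries had 3.62, 2.04 and 2.28 CPM, OVE853 libraries 2.48, 1.85 and 1.70, and OVE918 libraries 0.428, 0.782, 1.78 and 1.11, which correspond to 10 to 48 read pairs. OVE918 lay wholly below WT but overlapped with OVE853. In the fit of genes kept by filterByExpr, the log2 fold change was -1.33 ± 0.42 in OVE918 (FDR 0.0511) and -0.38 ± 0.44 in OVE853 (FDR 0.569). The OVE918 value did not pass, and it passed without OVE918 replicate 3 (-1.75, FDR 0.0194) and with DESeq2 (FDR 0.0172). It also passed with library totals only (FDR 0.0384) and with no filter beyond 1 count (FDR 0.0395). Without WT replicate 3 it was -1.45 (FDR 0.0526).

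Tjp1 encodes zonula occludens protein 1, the main scaffold under the strands, and lies on chromosome 7 at 64945898 to 65177529 of the minus strand. Its levels were 189, 171 and 133 CPM in WT, 190, 200 and 191 in OVE853 and 180, 215, 211 and 118 in OVE918. WT replicate 3 and OVE918 replicate 4 were the low libraries of their groups. OVE853 differed from WT by 0.24 ± 0.20 on the log2 scale (FDR 0.422), OVE918 by 0.14 ± 0.19 (FDR 0.654), and OVE918 from OVE853 by -0.10 ± 0.19 (FDR 0.769). Without WT replicate 3 the first 2 values were 0.11 and 0.01. The sign of the last value depended on OVE918 replicate 4 (0.06 without it). No difference was detected at this spread.

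Pard3 encodes the scaffold PAR-3, which gathers the PAR complex at junctions, and lies on chromosome 8 at 127790392 to 128338767 of the plus strand. It was at 69.5, 69.0 and 62.6 CPM in WT, at 63.5, 58.0 and 64.1 in OVE853 and at 49.2, 57.3, 59.5 and 46.3 in OVE918. OVE918 lay below WT in every library, and OVE853 overlapped with both. The mean fell from 67.0 ± 3.88 CPM in WT to 53.1 ± 6.33 in OVE918, a log2 fold change of -0.34 ± 0.10 (FDR 0.0405), or 1.26-fold lower, and it was -0.12 ± 0.11 (FDR 0.468) in OVE853. This call was lost, at an FDR of 0.0570 to 0.106, without WT replicate 1, WT replicate 2, any 1 of the 3 OVE853 libraries, OVE918 replicate 1 or OVE918 replicate 4. It was -0.38 (FDR 0.0380) without WT replicate 3.

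Pard6b encodes PAR-6 beta, the partner of atypical protein kinase C in the complex, and lies on chromosome 2 at 167922803 to 167943123 of the plus strand. WT libraries had 6.71, 5.31 and 8.59 CPM, OVE853 libraries 4.26, 6.04 and 4.66, and OVE918 libraries 3.90, 5.74, 3.31 and 5.12. All 3 groups overlapped. In the fit of genes kept by filterByExpr, OVE853 differed from WT by -0.45 ± 0.26 on the log2 scale (FDR 0.247) and OVE918 by -0.58 ± 0.24 (FDR 0.124), and neither passed. Without WT replicate 3, its highest library, the values were -0.31 and -0.41.

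**Figure D4:**
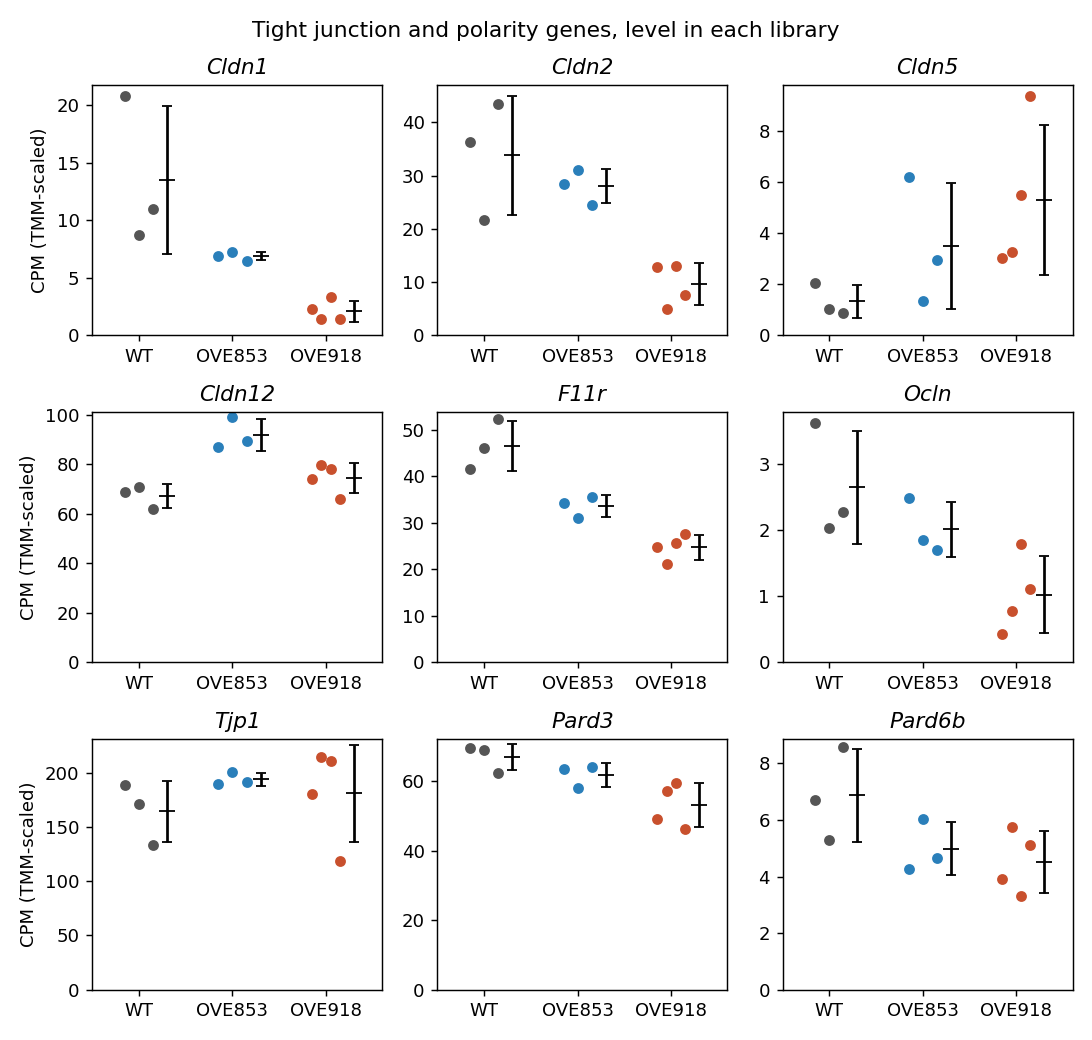
TMM-scaled CPM of each gene in every library (coloured points) with the group mean and SD (black) for WT (n = 3), OVE853 (n = 3) and OVE918 (n = 4), each axis starting at 0. Cldn1 and F11r step down from WT through OVE853 to OVE918, Cldn2 is low in OVE918, and Tjp1 overlaps between WT and OVE918.

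The genes whose log2 CPM was most alike to that of each tested gene over the 10 libraries were sought among 11096 genes. For Cldn1 they were Fbln1, an extracellular matrix protein (Pearson r 0.993), and the ciliary marker Zic1 (0.987). For Cldn2 they were the non-coding RNA Dio3os (0.992) and Efemp1, a matrix protein (0.971). For Cldn5 they were Gpn2 (0.981) and Rrp15 (0.959), for Cldn12 Bnip2 (0.983) and Zfp945 (0.983), and for F11r Igfbp4, an IGF-binding protein (0.986), and Fcgrt (0.984). For Tjp1 they were Pigb (0.983) and Ccdc186 (0.982), and for Pard3 Map3k4 (0.963) and Abl1 (0.962). The libraries share their group, depth and composition, and these values describe likeness in 10 points without a test.

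Among 67 other genes of tight junctions and polarity complexes, 39 were tested. In OVE853, 5 rose and 5 fell, and in OVE918, 4 rose and 8 fell, with a median log2 fold change of 0.01 and -0.08. Over all tested genes, 8.10% rose and 7.69% fell in OVE853 and 8.00% and 11% in OVE918, with a median of -0.01 and 0.01. Of 6 tested membrane proteins other than claudins, 1 rose and 2 fell in OVE853, and 2 rose and 2 fell in OVE918. Of 15 tested plaque genes, 2 rose and 3 fell in OVE853, and 1 rose and 5 fell in OVE918. Of 7 tested PAR genes, 0 changed in either line by edgeR, with 0 in OVE853 and 2 in OVE918 at an unadjusted p under 0.05 and the same counts by DESeq2. Of 6 tested Crumbs genes, Mpdz fell in OVE918 (-0.55, FDR 0.0495), and of 4 tested Scribble genes, Llgl2 rose in OVE853 (0.54, FDR 0.0259). Both are named after their values were seen, and no value without WT replicate 3 is given for either. The count of 10 changed genes in OVE853 was 4 without OVE853 replicate 1, 6 without OVE853 replicate 2 and 5 without OVE853 replicate 3, and the count of 12 in OVE918 was 8 without WT replicate 2 and 8 without OVE918 replicate 3.

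Cgn, which encodes cingulin, a plaque protein that binds Tjp1, had the largest fall of the 39 in OVE918. It was at 47.8, 44.2 and 49.0 CPM in WT, at 28.1, 25.3 and 22.5 in OVE853 and at 15.1, 12.1, 13.6 and 10.6 in OVE918. The groups formed 3 steps without overlap. Against WT, OVE853 differed by -0.89 ± 0.13 on the log2 scale (FDR 0.00160) and OVE918 by -1.87 ± 0.13 (FDR 5.26e-06). OVE918 differed from OVE853 by -0.97 ± 0.13 (FDR 0.00966), which was the only change of the list between the lines by edgeR, where DESeq2 called 3, and was lost without OVE853 replicate 1 (FDR 0.0627) or OVE853 replicate 2 (FDR 0.0502). Without WT replicate 3 the falls against WT were -0.86 and -1.84.

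Ildr2, an angulin of junctions where 3 cells meet, was at 36.4 to 57.2 CPM in WT, 28.1 to 33.3 in OVE853 and 13.5 to 19.8 in OVE918, with log2 fold changes of -0.68 (FDR 0.0334) and -1.49 (FDR 0.000190). The OVE853 fall of Ildr2 was lost, at an FDR of 0.0506 to 0.113, without WT replicate 1, WT replicate 3 or any 1 of the 3 OVE853 libraries. Jam2, a relative of F11r, fell by 0.82 in OVE853 (FDR 0.00403) and by 1.06 in OVE918 (FDR 0.000297) on the log2 scale. Amotl2, an angiomotin-like scaffold, fell by 0.73 (FDR 0.00987) and 1.07 (FDR 0.000394). The falls of Jam2 and Amotl2 held without each library, although they were less than 1 in size in OVE918 without WT replicate 3 (-0.88 and -0.90). These genes fell in both lines, like F11r.

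Cldn10 and Micall2 rose in both lines. Cldn10, a claudin of ion-selective paracellular channels, was at 4.96, 8.50 and 12.4 CPM in WT, at 22.2, 19.8 and 16.8 in OVE853 and at 25.5, 17.8, 18.7 and 23.5 in OVE918. All transgenic libraries were above all WT libraries, with log2 fold changes of 1.18 ± 0.27 (FDR 0.0174) and 1.30 ± 0.26 (FDR 0.00609), and 1.53 and 1.66 without WT replicate 3. The OVE853 call was lost without OVE853 replicate 1 (FDR 0.0688). Cldn10 was the only one of the 8 ciliary epithelium markers to rise. Micall2, a RAB13 effector that acts in junction assembly, had 6.66 to 15.3 CPM in WT, 23.9 to 26.4 in OVE853 and 15.9 to 22.4 in OVE918. Its log2 fold changes were 1.17 ± 0.25 (FDR 0.0112) and 0.85 ± 0.23 (FDR 0.0285), the latter lost without WT replicate 2, OVE918 replicate 2, OVE918 replicate 3 or OVE918 replicate 4 (FDR 0.0607 to 0.0667), with no filter beyond 1 count (FDR 0.0612) and in a fit of only the compared groups (FDR 0.0757). Without WT replicate 3, its lowest library, they were 0.89 and 0.57 and both passed (FDR 0.00542 and 0.0302).

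**Figure D5:**
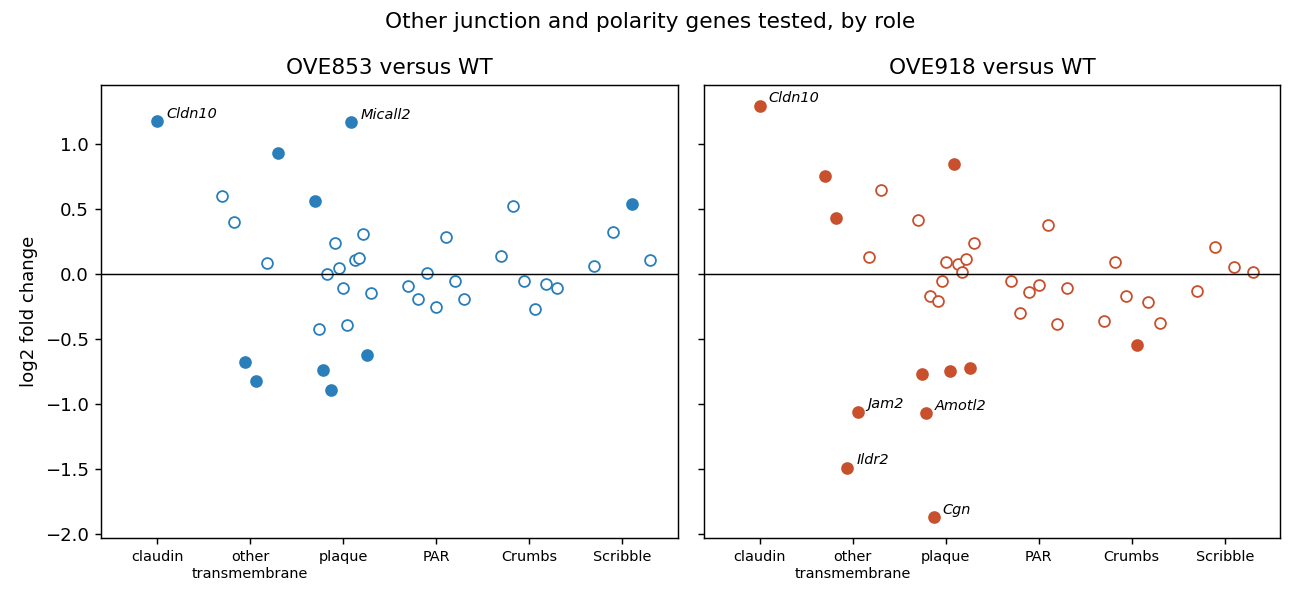
Log2 fold change of the 39 other tested junction and polarity genes, grouped by role, in OVE853 (left) and OVE918 (right) against WT. Filled points passed an FDR of 0.05 and the DEGs are named. The PAR column has 0 filled points in both panels, and Cgn has the lowest value at -1.87 in OVE918.

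Another 11 genes of the list were under the FPKM minimum but could be fitted among the genes kept by filterByExpr, where 7.02% of all genes were lower in OVE853 and 10.0% in OVE918. Of these 11, 3 fell in OVE853 and 6 in OVE918. They are named after their values were seen. A gene high in WT alone lands in this set by failing the minimum, so falls are favoured in it. The shares are over all genes kept by filterByExpr and are not a matched background. Cldn19, a claudin of kidney and of retinal pigment epithelium, was at 23.8, 17.2 and 12.4 CPM in WT, at 4.17, 4.89 and 5.45 in OVE853 and at 2.31, 0.931, 2.64 and 1.85 in OVE918, with log2 fold changes of -1.87 (FDR 0.00625) and -3.18 (FDR 0.000115), and -2.12 and -3.41 without WT replicate 3. Its WT level of 4.00 ± 1.14 FPKM was above the minimum, so a gene high in the 3 WT libraries alone could not enter the main test. Tjp3, a relative of Tjp1, fell by 1.78 and 1.44 on the log2 scale, and by 1.72 and 1.36 without WT replicate 3. Crb1, a Crumbs protein of retina, fell by 1.85 and 1.62, and its WT level was 29.6 CPM in WT replicate 3 against 10.4 and 8.96 in the others. Without that library the values of Crb1 were -1.15 and -0.89 and neither passed (FDR 0.0509 and 0.0857), and its OVE853 call was also lost without any 1 of the 3 OVE853 libraries and its OVE918 call without OVE918 replicate 2, 3 or 4. Cldn3, Marveld2 and Crb3 fell in OVE918 (log2 fold change -2.66, -1.16 and -1.34), from 1.40, 2.06 and 1.46 CPM in WT. Without WT replicate 3, Cldn3 still passed (-2.60, FDR 0.00772), whereas Marveld2 (-0.95, FDR 0.0868) and Crb3 (-1.13, FDR 0.101) did not. The call of Marveld2 was also lost without WT replicate 2, OVE918 replicate 3 or OVE918 replicate 4, and that of Crb3 without WT replicate 2, OVE853 replicate 1, OVE853 replicate 3, OVE918 replicate 1, OVE918 replicate 2 or OVE918 replicate 3.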

How the data were processed

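Lens epithelial RNA of 10 pools of mice was sequenced. The authors used Cutadapt 5.2 for trimming and STAR 2.7.11b for alignment to GRCm39, and summarized read pairs per RefSeq gene, reverse-stranded, with featureCounts 2.0.8. They deposited raw counts for 50763 genes. All 10 columns were matched to samples by the short names in the labels (0 columns without a sample). Counting error and the spread between pools limit precision.

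Counts were tested in R 4.3.3 with edgeR 4.0.16 (TMM, robust quasi-likelihood fit of 3 groups, Benjamini-Hochberg adjustment over all genes). For FPKM, gene lengths were the merged exons of GENCODE Primary transcripts (vM39), found by symbol for 43252 genes and by a RefSeq synonym for 22, and 7489 genes without a length were not tested. The SE is the log2 fold change divided by the square root of F. Steps were tested on simulated data. Alternatives were DESeq2 1.42.0, other scaling, filters and lengths, a fit of only the compared groups, no robust estimation, the replicate number as a block and leaving out libraries.

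The 9 genes, the list of 67 other genes and the marker lists were chosen with earlier results of these data known. Cldn10 and Esam stand in both the list of 67 genes and a marker list. Named are all 9 genes, Tgfb1, the DEGs of the list, and the 2 genes most alike to each tested gene (log2 CPM, prior count 2). Promoter motifs were chosen after the windows were seen. Marker lists were lens epithelium, lens fiber, endothelium, macrophage, corneal epithelium, corneal stroma, pigmented epithelium, non-pigmented ciliary epithelium, retinal neuron, photoreceptor, Müller glia and erythrocyte.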

Additional observations from a re-analysis of the deposited data

Results flagged for a closer look

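The level of Cldn1 differed between the lines, with a log2 fold change of -1.70 in OVE918 against OVE853 (edgeR FDR 0.0480). That call was lost with upper-quartile factors (FDR 0.0505), filterByExpr (FDR 0.0713) and the replicate block (FDR 0.129), and on leaving out several single libraries. Cgn also differed between the lines, at -0.97 (FDR 0.00966). Tgfb1 itself differed in the same comparison, at 1.15 (FDR 0.00388), and was the higher in OVE918. The cause of these differences was not tested. In OVE918 replicate 1, Micall2 was at 15.9 CPM, far below the 21.4 to 22.4 CPM of the other 3 OVE918 libraries and close to the highest WT value of 15.3. It was the only such library in 16 genes examined in OVE918, the only group of at least 4 libraries, and chance flags about 1 in 20 groups.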

How the results depend on the processing

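Of 525 refitted log2 fold changes of the 9 genes, 467 kept their direction and side of the threshold, 36 lost and 18 gained significance, and 4 changed sign. Cldn1 and F11r in OVE918 passed under every alternative in which they were tested. Pard3 in OVE918 lost its call under 13 of 21. With the replicate block, Cldn5 (FDR 0.0629) and Micall2 (FDR 0.0996) in OVE918 and Cldn10 in both lines (FDR 0.0587 and 0.0561) also lost theirs. The sign changes were those of Tjp1 between the lines (0.0596 with the replicate block, 0.0590 without WT replicate 3 and OVE918 replicate 4, and -0.192 to 0.0588 on leaving out each library) and of Pard6b between the lines (-0.266 to 0.0292 on leaving out each library). Among the other named genes, Cldn10 between the lines changed sign with library totals only (-0.0702), a scaling under which the median of all genes between the lines was -0.20. Crb3 in OVE853 changed sign with both libraries left out (0.0322; -0.290 to 0.00243 on leaving out each library), and Crb1 between the lines did so without OVE918 replicate 1 (-0.113 to 0.406 on leaving out each library). All these values were far from the threshold, and the cause was not tested.

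The number of the 9 genes that changed in OVE853 (2) was 1 with library totals only and 0 to 2 on leaving out each library. In OVE918 (5 with Cldn1 and Cldn5 counted) it was 3 with WT replicate 3 and OVE918 replicate 4 both left out, with 1 DEG in place of 3. It was 3 to 4 on leaving out each library. Between the lines (1 changed, 1 DEG) it was 4 and 2 DEGs with DESeq2, 3 and 2 with library totals only, 2 and 2 with the minimum in 6 libraries, with only the compared groups and with no robust estimation, and 0 and 0 with upper-quartile factors, filterByExpr and no filter beyond 1 count. It was 1 with 0 DEGs with both libraries left out, and 0 to 3 with 0 to 2 DEGs on leaving out each library. For the list of 67, the count in OVE853 (10) was 4 to 11 on leaving out each library. Between the lines (1) it was 3 with DESeq2, with library totals only and with both libraries left out, 2 with no filter, all-transcript lengths or only the compared groups, and 0 to 3 on leaving out each library.

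Over all genes, 1752 changed in OVE853 (719 to 2555 on leaving out each library), 2110 in OVE918 (1366 with only the compared groups) and 146 between the lines. The last count was 957 with DESeq2, 91 with upper-quartile factors, 363 with library totals only, 68 with filterByExpr, 386 with only the compared groups, 546 with both libraries left out, and 7 to 530 on leaving out each library. The replicate numbers did not pair the libraries, since 0 of 9 same-numbered pairs had a correlation of deviations over 0.1 (-0.30 to 0.08). With the number as a replicate block, 2 of the 9 genes changed in OVE853, 3 in OVE918 and 0 between the lines (0 DEGs), where 50 genes in all changed. The exon lengths of all transcripts moved 10 of 27 FPKM means of the 9 genes by more than 1 SD. Depth limits Ocln, Cldn5 and, in OVE918, Cldn1.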

Other observations

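The other marker lists were counted beside the junction genes. Of 5 tested Müller glia markers, 5 fell in OVE853 and 4 in OVE918, and the summed CPM of that list was 3544 to 5367 in WT, 2067 to 2412 in OVE853 and 2450 to 2935 in OVE918. Most of that sum was Dkk3, at 3051 to 3734 CPM in WT and 1834 to 2788 in the transgenic libraries, so the sum says little about the other markers. The cells that this Dkk3 came from were not tested. WT replicate 3 was high for others, with Glul at 1060 CPM against 333 and 330 and Rlbp1 at 210 against 29.9 and 35.0. The falls of these markers were not refitted without that library. Aldh3a1, an abundant enzyme of corneal epithelium, was at 236 to 1611 CPM in WT and at 26.3 to 92.4 in the transgenic libraries. Krt12, a keratin of the same tissue, was at 0.760, 0.654 and 4.91 CPM in WT and at 0 in all 7 transgenic libraries. Of the 8 genes of this list, 7 had a lower and 1 a higher mean than WT in OVE853, and 6 and 2 in OVE918. By edgeR and by DESeq2, 1 of 2 tested genes fell in each line. The other, Perp, had a log2 fold change of -0.22 (edgeR FDR 0.358) in OVE853. In OVE918 it was 0.39 (FDR 0.0949), with an unadjusted p under 0.05. Lens fiber markers had a summed CPM of 81992 to 96707 in WT, 44936 to 71228 in OVE853 and 68292 to 145078 in OVE918. By edgeR 0 of these 10 genes changed in OVE853, with 1 at an unadjusted p under 0.05 and 1 by DESeq2, and Hsf4, a heat shock factor of the lens, rose in OVE918. In OVE918, 4 of the 10 had an unadjusted p under 0.05, 4 passed with DESeq2, and all 10 had a higher mean than WT. Between the lines, 0 changed by edgeR, with 7 at an unadjusted p under 0.05 and 5 by DESeq2. Of 4 tested macrophage markers, C1qa, a complement component, alone rose in OVE918 by edgeR, where 4 had an unadjusted p under 0.05 and 4 passed with DESeq2. In OVE853 0 changed by edgeR, where 4 had an unadjusted p under 0.05 and 3 passed with DESeq2. Of 4 tested retinal neuron markers, 0 changed by edgeR in either line, where 4 had an unadjusted p under 0.05 and 1 passed with DESeq2. In the corneal stroma (2 tested), pigmented epithelium (3 tested) and erythrocyte (3 tested) lists, 0 genes changed in either line by edgeR, by DESeq2 or at an unadjusted p under 0.05. The same was found for 3 tested photoreceptor markers in OVE853, and in OVE918 1 of them passed with DESeq2 and had an unadjusted p under 0.05 without passing by edgeR. The summed CPM of pigmented epithelium markers was 52.0 to 163 in WT, 38.4 to 80.3 in OVE853 and 39.9 to 74.3 in OVE918.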
